A study of Homo sapiens with 48 samples.

Results

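Translation initiation factors were taken as every probe set whose annotated gene symbol starts with EIF followed by a digit from 1 to 6. On these arrays 83 probe sets of 40 genes met that rule, of 22215 probe sets and 11963 genes tested. By factor number, 13 probe sets of 4 genes belonged to EIF1, 13 of 9 genes to EIF2, 22 of 12 genes to EIF3, 19 of 10 genes to EIF4, 15 of 4 genes to EIF5, and 1 to EIF6. The EIF2AK kinases, which act on eIF2 and are not initiation factors, are described apart and comprise 5 probe sets of 3 genes. Another 8 probe sets name an EIF gene beside other genes. These are given by probe set and are not counted among the 83.

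The samples are RNA of K562, an established human chronic myeloid leukaemia line that grows under the BCR-ABL1 fusion kinase, hybridised to Affymetrix arrays. In each of 8 sets lettered A to H, 3 samples were mock treated and 3 received the BCR-ABL1 inhibitor imatinib at 1 micromolar over 24 hours, 48 samples in all. What the letters mark, and whether samples are separate cultures, is not in the labels, so p-values reflect the spread among these samples only, and that spread may be technical. Mock RNA was isolated by Trizol followed by a column and imatinib RNA by the column alone, in every set, so treatment and isolation cannot be told apart.

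Translation of most messenger RNAs starts when the cap-binding complex eIF4F (eIF4E, the scaffold eIF4G and the helicase eIF4A) brings the mRNA to a small ribosomal subunit that carries eIF1, eIF1A, eIF3, eIF5 and the eIF2 complex with initiator tRNA. After start codon recognition eIF5 triggers GTP hydrolysis on eIF2, eIF5B joins the large subunit, and eIF2B recharges eIF2 with GTP. Phosphorylation of eIF2 by the EIF2AK kinases blocks that recharging, and the 4E-binding proteins block eIF4E until mTOR phosphorylates them.

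Values are log2 levels per probe set, and a change is the log2 level with imatinib minus that with mock, ± SE, in a limma model of all 24 imatinib and 24 mock samples with the set as a factor. "Rose" and "fell" mark changes with a Benjamini-Hochberg adjusted p under 0.05 over all probe sets. The median SD of the EIF probe sets within a group of 3 was 0.093 and ranged from 0.060 to 0.156 over the groups. The mean level over probe sets differed between sets (5.89 to 7.61), so treatments are compared within sets. The median change over all probe sets within a set lay between -0.01 (set F) and 0.08 (set B). The 7 measured K562 and erythroid markers stood at the 60.9th to 99.6th percentile of mock levels, and all 7 rose. The 4 monocyte markers stood at the 20.0th to 35.6th percentile, the 4 T cell markers at the 49.1st to 80.0th, the 3 B cell markers at the 37.6th to 70.6th and the 4 epithelial and fibroblast markers at the 11.8th to 85.0th; no detection calls were used. Of these other markers, 1 T cell gene fell (CD3D, by 1.73, in all 8 sets) and 1 rose, 1 monocyte gene fell (LYZ, by 0.44) and 1 rose, and 2 B cell and 2 epithelial and fibroblast genes rose (limma), each rise under 0.2. The part of other cells in the changes of the initiation factors was not tested. The difference between the 3′ and 5′ ACTB control probe sets, a sign of RNA integrity, was higher with imatinib in 6 of 8 sets (mean change 0.15 ± 0.19, SD over sets), and that of GAPDH in 4 of 8 (0.02 ± 0.08). The part of RNA integrity in the changes below was not tested. In bulk RNA, fewer cells of a type and less RNA per cell cannot be told apart.

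Most initiation factor transcripts were lower after imatinib. Of the 40 genes, each read from its brightest probe set, 26 fell (65.0%), 11 rose (27.5%) and 3 did not pass, while 27.1% of all genes tested fell and 41.6% rose. The median change of the 40 genes was -0.26, against 0.05 over all genes. Among the 83 probe sets 55 fell (66.3%) and 17 rose (20.5%), against 25.8% and 39.3% of all probe sets. Falls of at least 0.5 were seen for 13 of the 40 genes (32.5%; 9.04% of all genes) and rises of that size for 0 (5.3% of all genes). Because 69 of the 83 probe sets were at or above the median level, the count was also taken among such probe sets alone: 45 of the 69 fell (65.2%), against 40.4% of all that bright. Falls of at least 0.5 were not counted in that way.

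**Figure D1:**
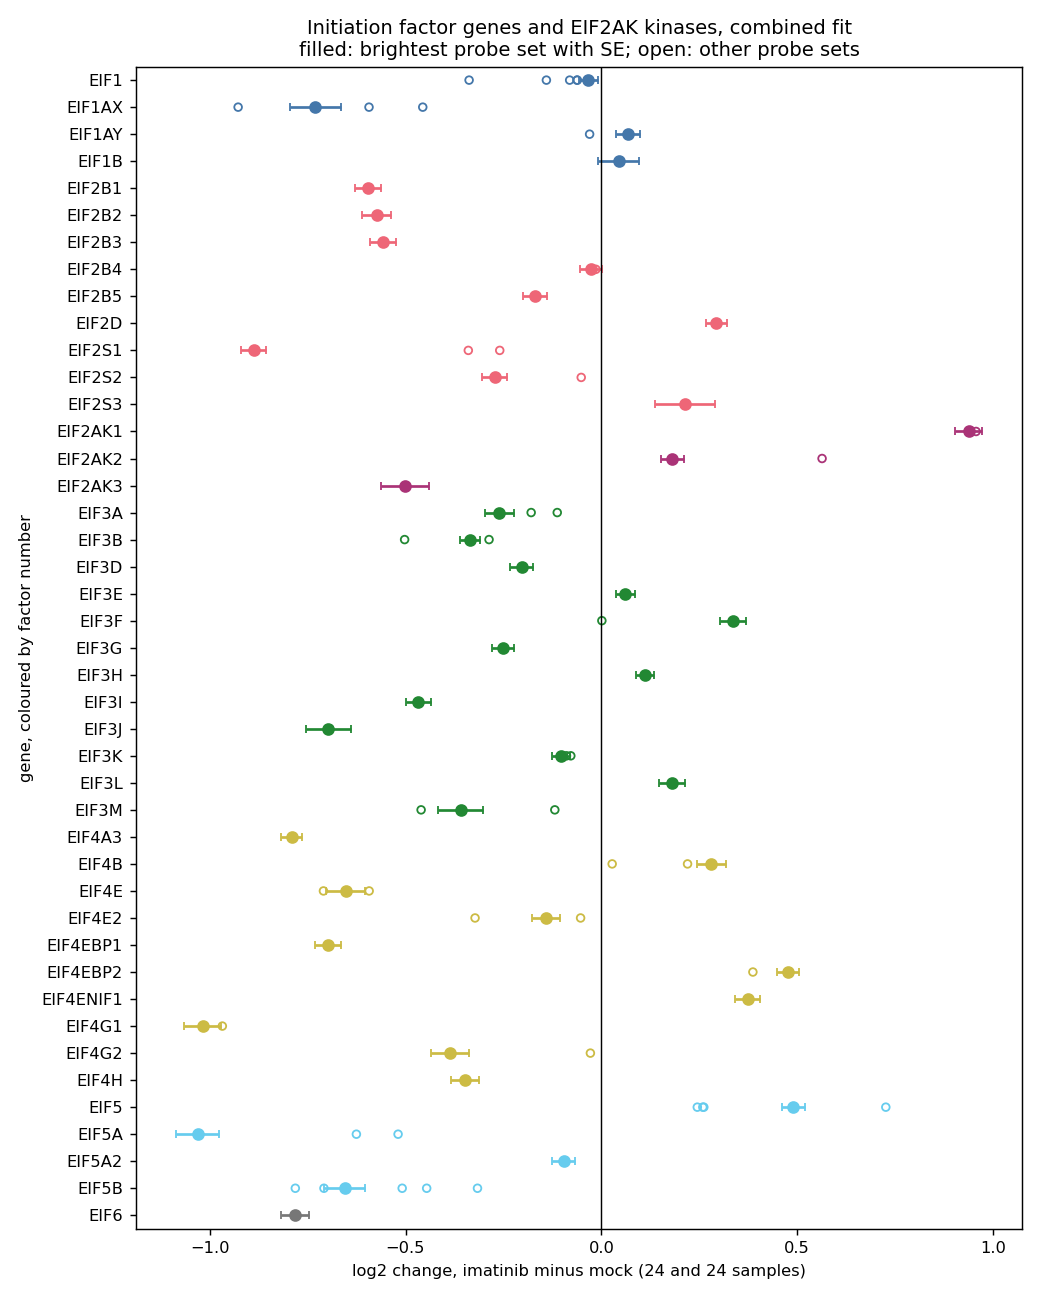
Change in log2 level (imatinib minus mock, horizontal axis) of each EIF and EIF2AK gene by its brightest probe set, with SE over 24 samples per treatment; open points are the gene's other probe sets. Most genes lie left of 0, with EIF5A (-1.03) and EIF4G1 (-1.02) lowest and EIF2AK1 (0.94) highest.

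In the eIF4 group, 7 of 10 genes fell and 3 rose, with a median change of -0.37. The cap-binding complex was lower in its central members. EIF4G1, the scaffold that ties the cap-binding protein to the helicase and to eIF3, fell by 1.02 ± 0.05, so that its mock level was 2.03-fold its imatinib level (limma, adjusted p = 4.56e-24). Its set A mock samples read 9.04, 8.80 and 9.31 and the imatinib samples 8.21, 8.29 and 8.28. Relative to the mock mean of their own set, the 24 imatinib samples lay between -1.51 and -0.73 (median -0.95) and the 24 mock samples between -0.25 and 0.26. Every imatinib sample was thus below every mock sample, and treatments overlapped in none of the 8 sets. A further EIF4G1 probe set fell by 0.97.

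EIF4E, the protein that holds the cap, fell by 0.65 ± 0.05 (limma, adjusted p = 2.14e-16), and its 2 dimmer probe sets fell by 0.71 and 0.59. In set A it read 8.19, 8.53 and 8.29 with mock and 7.79, 7.72 and 7.56 with imatinib. Relative to their set's mock mean, imatinib samples ran from -1.10 to -0.30 (median -0.58) and mock samples from -0.22 to 0.34; the treatments did not overlap in any of the 8 sets, with changes from -0.85 to -0.39. The helicase EIF4A1 could be read only from probe sets shared with the SENP3-EIF4A1 readthrough gene or with the small RNAs SNORD10, SNORA48 and SNORA67; these 3 fell by 0.42, 0.52 and 0.36. A probe set shared by EIF4A2 with SNORD2, MIR1248 and other small RNAs rose by 0.08 ± 0.03 (limma, adjusted p = 0.028), a call lost when arrays were centred on their median (0.04, adjusted p = 0.37).

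EIF4A3, a close relative of these helicases that sits in the exon junction complex of spliced mRNA, fell by 0.79 ± 0.03 (limma, adjusted p = 1.52e-29). Set A mock samples were at 9.60, 9.50 and 9.54 and imatinib samples at 8.88, 8.85 and 8.86. Over all sets the imatinib samples lay -1.11 to -0.58 from their set's mock mean (median -0.78) and the mock samples -0.09 to 0.05, a gap without overlap. The helicase partners split: EIF4H fell by 0.35, while EIF4B rose by 0.28, with changes above 0 in every set (0.05 to 0.49). Another EIF4B probe set rose by 0.22. The dimmest changed by 0.03, with 4 of 8 sets below 0, and did not pass (limma, adjusted p = 0.72). EIF4G2, an eIF4G relative that lacks the eIF4E binding site, fell by 0.39, and EIF4E2, a cap-binding homologue of eIF4E, fell by 0.14. The dimmer EIF4G2 probe set changed by -0.03 and did not pass (limma, adjusted p = 0.427). Of the other EIF4E2 probe sets, 1 fell by 0.32 and 1 changed by -0.05 without passing (limma, adjusted p = 0.133).

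The proteins that restrain eIF4E moved in opposite directions. EIF4EBP1 fell by 0.70 ± 0.03 (limma, adjusted p = 2.59e-23), from 9.23, 9.08 and 8.91 in set A to 8.46, 8.30 and 8.49. Relative to the mock mean of each set, its imatinib samples ran from -1.03 to -0.45 (median -0.68) and its mock samples from -0.17 to 0.16. EIF4EBP2 rose by 0.48 ± 0.03 (limma, adjusted p = 1.14e-20), from 8.38, 8.27 and 8.51 in set A to 8.83, 8.80 and 8.66. Its imatinib samples ran from 0.27 to 0.68 above the mock mean (median 0.46) and its mock samples from -0.13 to 0.18. In these probe sets of both genes no imatinib sample lay within the mock range, and each of the 8 sets passed alone. The dimmer EIF4EBP2 probe set rose by 0.39 and passed in 6 sets alone. There, 12 of the 24 imatinib samples lay above all mock samples. EIF4ENIF1, the protein that carries eIF4E into the nucleus and to processing bodies, rose by 0.37 ± 0.03 and also passed in all 8 sets. The probe set that EIF4EBP3 shares with ANKHD1 changed by 0.04 and did not pass (adjusted p = 0.41).

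**Figure D2:**
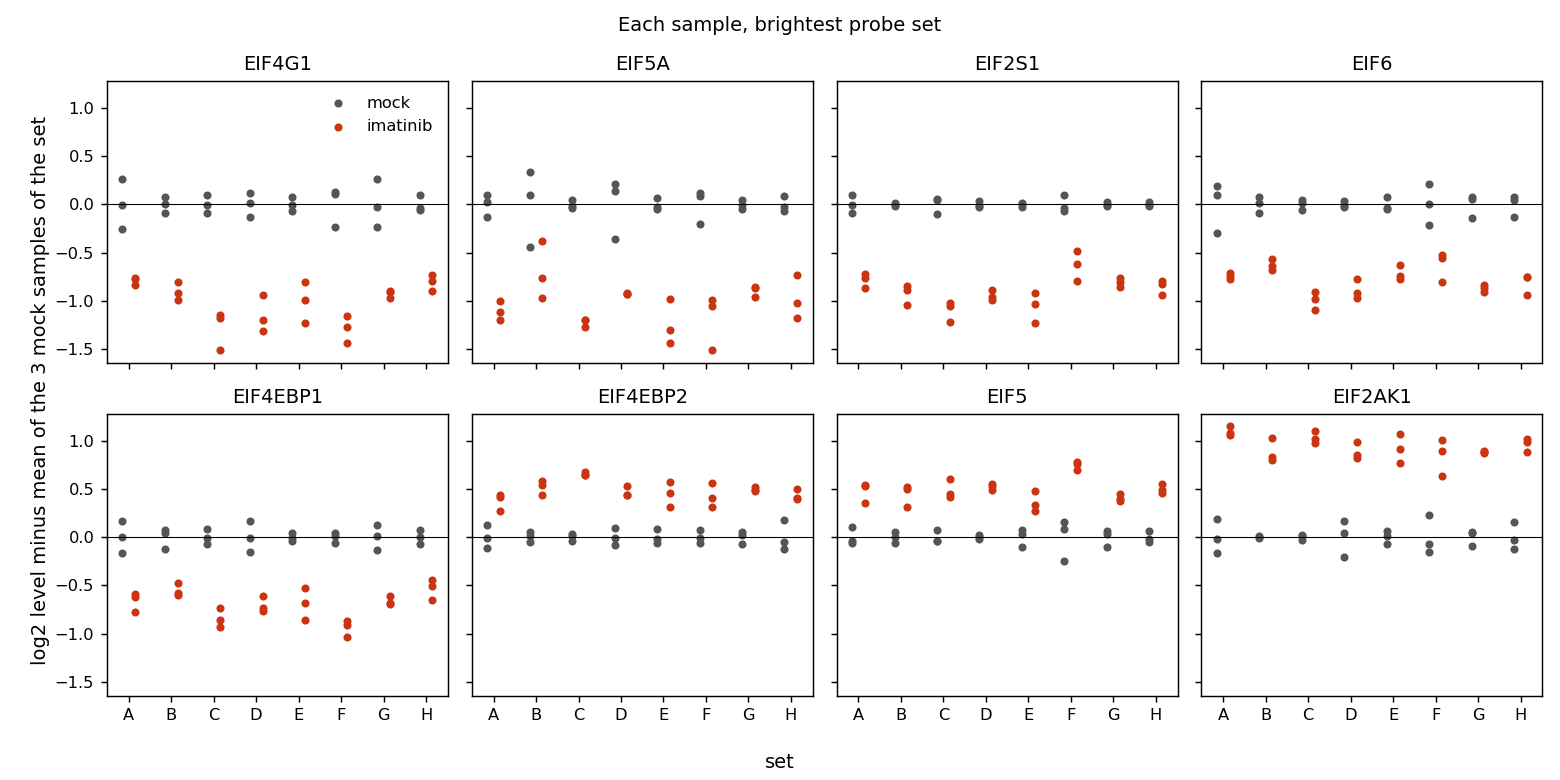
Log2 level relative to the mock mean of the same set (vertical axis) for every sample of selected members, read from the brightest probe set, by set and treatment. Imatinib samples of EIF4G1, EIF2S1, EIF6 and EIF4EBP1 lie below all mock samples, those of EIF4EBP2, EIF5 and EIF2AK1 lie above them, and those of EIF5A overlap with mock in set B.

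Promoters of the members were searched for the E-box CACGTG, a palindrome that reads the same on both strands and is the preferred site of MYC and MAX family factors. Promoters from 250 bases before to 50 after the start, from RefSeq on GRCh38.p14, were found for 33 of the 40 genes, 45 promoters in all. CACGTG stood in 10 of these 45 (22.2%), against 7.26% of the 35116 promoters of the table and 8.76% of those of genes measured here. The genes were EIF4A3, EIF4B, EIF4E, EIF4G1 and EIF4H of the eIF4 group, and EIF1B, EIF2B3, EIF3F, EIF3K and EIF5A2. Among genes that fell it was in 7 of 32 promoters (21.9%), and among those that rose in 2 of 9 (22.2%). AGATAA, the site of GATA factors, searched on both strands, was in 0 of the 45 promoters, against 10.3% of all and 7.41% of those of genes measured here. The matches are letters in a window, and no binding was measured. The stretches below show the motif in capitals, 5′ to 3′ on the gene's strand, in the 3 genes of the eIF4 group with the largest falls among those with a match (EIF4G1, EIF4E and EIF4A3) and in both genes with a match that rose (EIF4B and EIF3F). EIF4E has a further match 225 bases before the start, which is not shown.
EIF4G1, chr3:184314432-184314497, plus strand, motif 144 bases before the start: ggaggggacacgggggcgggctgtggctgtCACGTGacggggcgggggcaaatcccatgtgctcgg
EIF4G1, chr3:184314509-184314574, plus strand, motif 67 bases before the start: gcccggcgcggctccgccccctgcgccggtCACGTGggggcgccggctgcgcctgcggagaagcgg
EIF4E, chr4:98929170-98929235, minus strand, motif 72 bases before the start: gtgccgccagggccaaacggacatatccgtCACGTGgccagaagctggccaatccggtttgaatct
EIF4A3, chr17:80147214-80147279, minus strand, motif 121 bases before the start: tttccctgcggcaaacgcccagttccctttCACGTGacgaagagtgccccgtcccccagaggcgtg
EIF4B, chr12:53006404-53006455, plus strand, motif 22 bases before the start: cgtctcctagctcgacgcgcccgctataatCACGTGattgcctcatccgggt
EIF3F, chr11:7987239-7987304, plus strand, motif 68 bases before the start: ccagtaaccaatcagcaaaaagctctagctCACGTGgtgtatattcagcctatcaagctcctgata

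In the eIF2 group, 6 of 9 genes fell (66.7%, against 27.1% of all genes), 2 rose (22.2%, against 41.6%) and 1 did not pass. The median change was -0.27. The 3 subunits of eIF2, the GTPase that brings the initiator tRNA, did not move alike. EIF2S1, the alpha subunit and the substrate of the EIF2AK kinases, fell by 0.89 ± 0.03 (limma, adjusted p = 1.56e-28). Set A read 9.30, 9.40 and 9.21 with mock and 8.58, 8.44 and 8.54 with imatinib. All 24 imatinib samples lay below all mock samples when each was set against its set's mock mean (imatinib -1.23 to -0.49, median -0.87; mock -0.10 to 0.10). Its dimmer probe sets fell by less, 0.34 and 0.26. EIF2S2, the beta subunit, fell by 0.27 (5 sets passed alone), while its dimmer probe set changed by -0.05 and did not pass (adjusted p = 0.138). EIF2S3, the gamma subunit that binds GTP and tRNA, rose by 0.21 ± 0.08 (limma, adjusted p = 0.0145), but the call was lost without set B (0.14, limma adjusted p = 0.0771). The change was 0.70 in set B, where treatments overlapped, 0.50 in set F, which did not pass alone, and -0.14 in set A. A limma F test of whether the change differed between sets did not pass (adjusted p = 0.348).

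Of the subunits of eIF2B, the exchange factor that recharges eIF2, 4 of 5 fell (80.0%, against 27.1% of all genes). EIF2B1 (alpha) fell by 0.60 ± 0.03 (limma, adjusted p = 2.38e-21), from 8.40, 8.54 and 8.48 to 7.98, 7.89 and 7.97 in set A. EIF2B2 (beta) fell by 0.57 ± 0.04 (limma, adjusted p = 1e-18), from 7.25, 7.22 and 6.85 to 6.61, 6.40 and 6.64. EIF2B3 (gamma) fell by 0.56 ± 0.03 (limma, adjusted p = 1.81e-20), from 8.57, 8.63 and 8.53 to 8.14, 7.83 and 8.01. In these 3 genes every imatinib sample was below every mock sample after subtraction of the set's mock mean, and every set passed alone. The imatinib samples ran from -0.97 to -0.38 (median -0.57) for EIF2B1, from -1.03 to -0.39 (median -0.54) for EIF2B2 and from -0.93 to -0.35 (median -0.57) for EIF2B3. EIF2B5, the catalytic epsilon subunit, fell by 0.17, and EIF2B4 (delta) changed by -0.03, which did not pass (adjusted p = 0.398). EIF2D, which can deliver initiator tRNA without eIF2, rose by 0.29 (7 sets passed alone).

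The kinases that phosphorylate EIF2S1 were led by EIF2AK1, the heme-regulated inhibitor that is active in erythroid cells, which rose by 0.94 ± 0.03, or 1.92-fold (limma, adjusted p = 1.71e-28). In set A it read 9.05, 9.19 and 9.40 with mock and 10.27, 10.30 and 10.36 with imatinib. The 24 imatinib samples were 0.63 to 1.15 above their set's mock mean (median 0.94), and the mock samples lay between -0.20 and 0.23, so the treatments did not overlap. Its other probe set rose by 0.96. EIF2AK2, the kinase activated by double-stranded RNA, rose by 0.18 in its brighter probe set and by 0.56 in the other. EIF2AK3, the kinase of the endoplasmic reticulum, fell by 0.50 ± 0.06 at a level below the median of all probe sets, and 5 sets passed alone.

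Among the 12 genes of eIF3, the large scaffold on the small ribosomal subunit, 8 fell (66.7%) and 4 rose (33.3%). Of all genes, 27.1% fell and 41.6% rose. The median change of eIF3 genes was -0.23, and most changes were small. EIF3J, a loosely attached subunit, had the largest, a fall of 0.70 ± 0.06 (limma, adjusted p = 5.6e-15), and its other probe set fell by 0.69. Set A values were 8.79, 8.89 and 8.93 with mock and 8.36, 8.37 and 8.18 with imatinib. Over all sets the imatinib samples ran from -1.505 to -0.055 (median -0.660) and the mock samples from -0.19 to 0.12, with 23 of 24 below all mock samples and no overlap in 7 sets. EIF3I, a core subunit, fell by 0.47 and passed in all 8 sets. Other falls were EIF3M (0.36), EIF3B (0.34), EIF3A (0.26), EIF3G (0.25), EIF3D (0.20) and EIF3K (0.10). The call of EIF3K was lost with quantile normalization within sets (-0.04, limma adjusted p = 0.111). Its dimmest probe set changed by -0.09 and did not pass (limma, adjusted p = 0.0619). The change of EIF3M ran from -0.84 in set E to -0.09 in set A, but was not shown to differ between sets (limma F test, adjusted p = 0.118).

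The 4 eIF3 genes that rose were EIF3F (0.34 ± 0.03, 6 sets passed alone), EIF3L (0.18), EIF3H (0.11) and EIF3E (0.06). A dim EIF3F probe set changed by 0.001 and did not pass (limma, adjusted p = 0.969). The rise of EIF3E was lost with arrays centred on their median (0.02; limma, adjusted p = 0.508). EIF3C shares its 3 probe sets with its near-identical copy EIF3CL, so the copies cannot be told apart; these fell by 0.34, 0.32 and 0.37. Imatinib samples were below mock samples without overlap in all 8 sets for all 3 of them, as for 8.6% of all probe sets.

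The EIF5 group holds factors with different tasks, and 3 of its 4 genes fell (75.0%, against 27.1% of all genes). EIF5A, the hypusine-carrying factor that helps the ribosome past difficult peptide bonds, fell by 1.03 ± 0.06, a 2.04-fold higher level with mock (limma, adjusted p = 6.04e-22). Its set A samples were 10.52, 10.36 and 10.59 with mock and 9.49, 9.29 and 9.37 with imatinib. Relative to the mock mean, imatinib samples ran from -1.505 to -0.384 (median -0.999) and mock samples from -0.44 to 0.34; 23 of 24 were below all mock samples. Its other probe sets fell by 0.63 and 0.52, so the size depends on the probe set. EIF5A2, its paralog, was dim and fell by 0.10.

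EIF5B, the GTPase of subunit joining, fell by 0.66 ± 0.05 (limma, adjusted p = 1.83e-15), and all 6 of its probe sets fell, by 0.32 to 0.78. In set A it read 9.32, 9.16 and 9.23 with mock and 8.51, 8.57 and 8.49 with imatinib. Imatinib samples ran from -1.12 to -0.14 (median -0.69) against -0.45 to 0.31 for mock samples, so that 20 of 24 were below all mock samples. EIF5, which stimulates GTP hydrolysis by eIF2, went the other way and rose by 0.49 ± 0.03 (limma, adjusted p = 2.05e-19), in all 5 probe sets (0.24 to 0.73). In its brightest probe set the set A samples went from 9.62, 9.48 and 9.46 to 10.06, 9.87 and 10.05. All 24 imatinib samples were above all mock samples there and in the probe set that rose by 0.73. In the probe sets with rises of 0.24 to 0.26, 14 to 16 of the 24 were, and 3 or 4 sets passed alone.

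EIF6, which keeps free large subunits from joining, fell by 0.78 ± 0.04 (limma, adjusted p = 2.05e-24). Mock samples of set A were at 8.45, 8.53 and 8.05 and imatinib samples at 7.64, 7.60 and 7.57. All 24 imatinib samples were below all mock samples (imatinib -1.09 to -0.53, median -0.77; mock -0.29 to 0.21), and every set passed alone.

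The EIF1 group differed between its members. EIF1AX, the scanning factor eIF1A encoded on the X chromosome, fell by 0.73 ± 0.06 (limma, adjusted p = 5.21e-14), and its other probe sets fell by 0.46, 0.59 and 0.93. Set A samples read 8.60, 8.77 and 8.44 with mock and 8.05, 8.09 and 8.26 with imatinib. Relative to their set's mock mean, imatinib samples ran from -1.56 to -0.02 (median -0.75) and mock samples from -0.31 to 0.26; 22 of 24 were below all mock samples, and 7 sets passed alone, all but set F. EIF1, which guards start codon choice, changed by -0.03 and did not pass in its brightest probe set (adjusted p = 0.21), while the other 5 fell, by 0.06 to 0.34. EIF1B, its close relative, changed by 0.04 and did not pass (adjusted p = 0.46). EIF1AY, with both probe sets below the median level, changed by 0.07 at the edge of the threshold (limma, adjusted p = 0.0499). It is counted among the 11 genes that rose, but its other probe set changed by -0.03 and did not pass (limma, adjusted p = 0.402). The call was lost with arrays centred on their median (0.03, limma adjusted p = 0.353).

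Probe sets of the same gene never passed in opposite directions. Of the 21 EIF genes with several probe sets, 12 had the same call in all of them and 9 had at least 1 that did not pass, and in 0 did they oppose.

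Each set was then tested alone, 3 samples against 3. More EIF probe sets fell than rose in every set, from 17 of 83 (20.5%) in set F to 45 of 83 (54.2%) in set D. Over all probe sets the share that fell was 9.47% in set F and 18% in set D. The shares of EIF probe sets that fell in the other sets were 42.2% in A (14.7% of all), 49.4% in B (19.9%), 50.6% in C (20.1%), 45.8% in E (12.1%), 45.8% in G (16%) and 34.9% in H (11.8%). The EIF shares that rose were smaller, at 9.64% in set A (13.6% of all), 15.7% in set B (27.8%), 12% in set C (18.9%) and 9.64% in set D (20.9%). They were 6.02% in set E (7.24% of all), 12% in set F (7%), 9.64% in set G (11.5%) and 12% in set H (12.3%). In these fits set F was thus the set where the EIF share that rose was above that of all probe sets. Its count of 10 that rose ran from 5 to 11 with 1 sample left out, and was 7 with arrays centred on their median. The count that fell in set F also rests on few samples: without mock replicate 2 of that set, 8 probe sets fell.

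**Figure D3:**
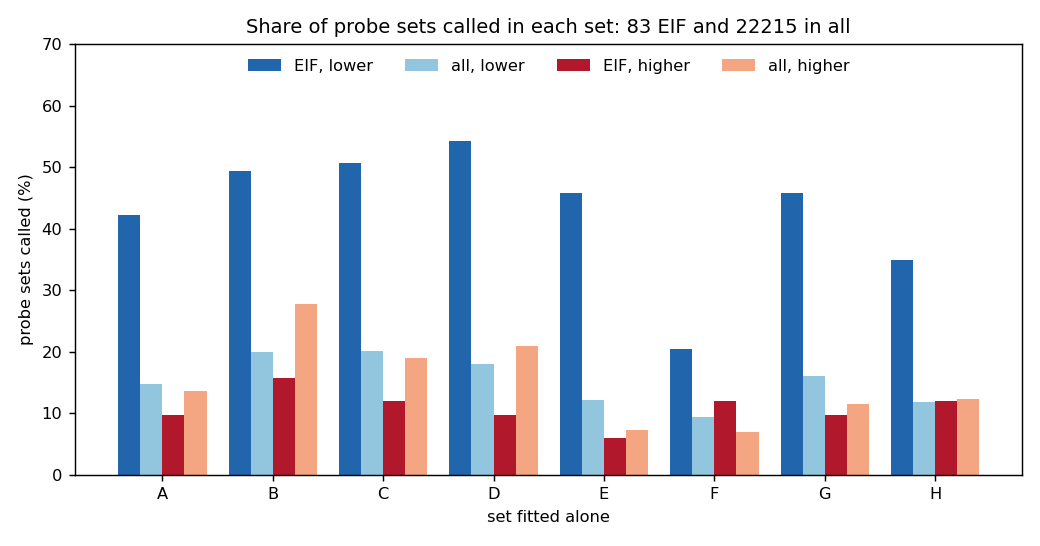
Share of probe sets (percent, vertical axis) that passed in each direction in each set alone, for the 83 EIF probe sets and for all probe sets tested. The EIF share that fell exceeds that of all probe sets in each of the 8 sets, and is lowest in set F (20.5% against 9.47%).

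Across sets, 14 of the 83 EIF probe sets (16.9%) fell in each of the 8 sets, against 6.57% of all probe sets, and 4 rose in each, against 3.94% overall. Imatinib samples were below mock samples without overlap in all 8 sets for 19 of the 83 (22.9%), against 8.6% of all. The same was true in the upward direction for 4 of the 83, against 5.43% of all. These shares, like those of each set alone, are set against all probe sets, dim ones included. Of the 83 EIF probe sets, 69 were at or above the median level, and the part of level in these contrasts was not tested. The change differed between sets by the limma F test of the set-by-treatment terms in 4 of the 83 (4.82%), against 7.2% of all probe sets. That count turned on single samples: it was 12 without imatinib replicate 1 of set E, 8 without imatinib replicate 2 of set C, and 7 without mock replicate 1 or imatinib replicate 2 of set F. It was 2 without mock replicate 2 or imatinib replicate 3 of set C, and without mock replicate 3 or imatinib replicate 1 of set F. The group medians kept their sign in every set for EIF2, EIF3, EIF4 and EIF5: eIF4 genes ran from -0.56 in set E to -0.17 in set A, and eIF3 genes from -0.28 in set C to -0.12 in set F.

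**Figure D4:**
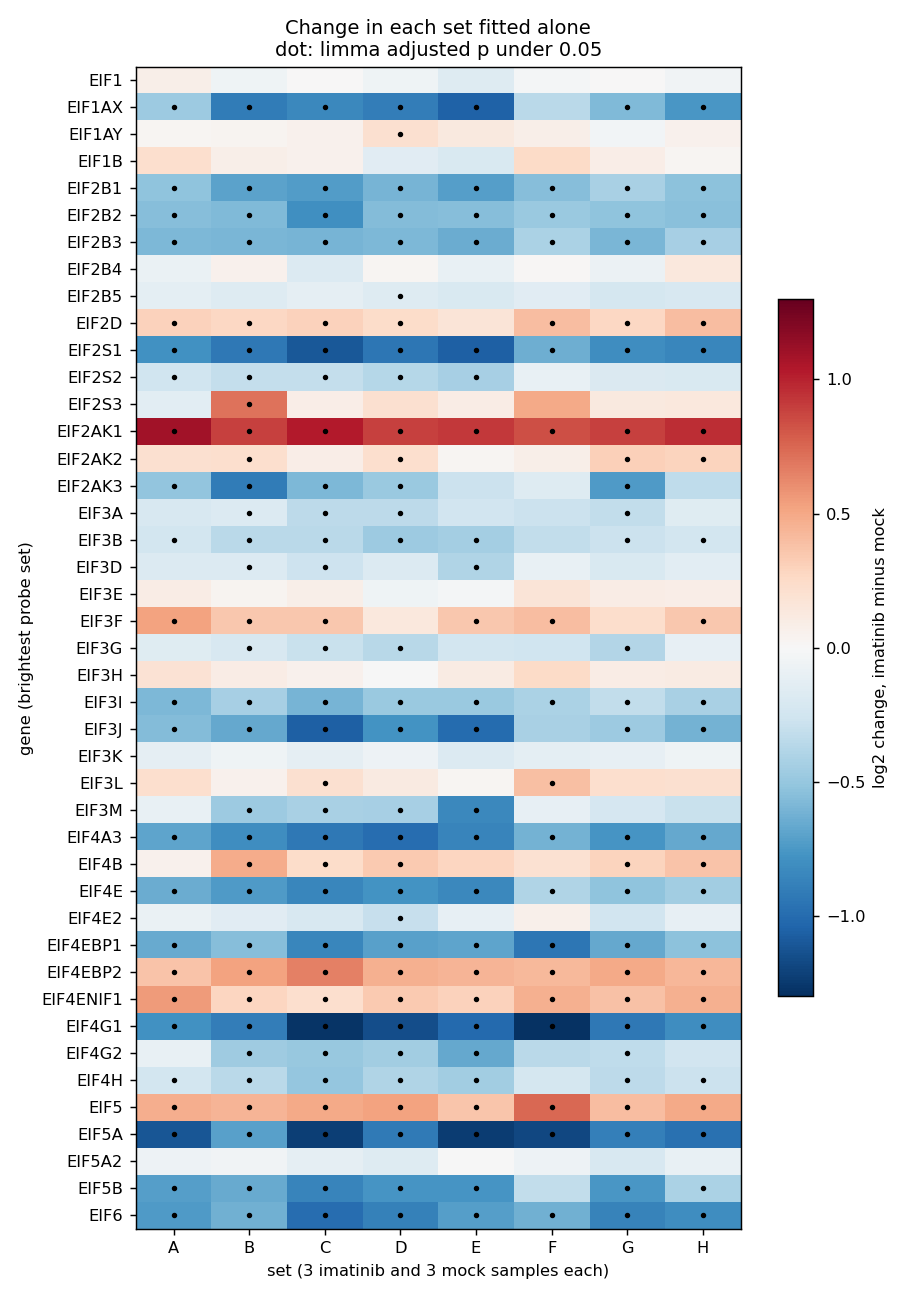
Change in log2 level (colour, imatinib minus mock) of each gene (rows) in each of the 8 sets (columns), in order of factor number. Dots mark changes that passed in limma on that set alone. EIF2AK1 is higher and EIF4G1, EIF5A and EIF2S1 lower across all sets, while EIF2S3 changes colour between set A (-0.14) and set B (0.70).

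Neighbouring steps of translation were read from lists of genes by the same fit. Of 6 measured genes of termination and ribosome recycling 5 fell and 0 rose (median -0.48). ABCE1, the ATPase that splits the ribosome after termination, fell by 1.05 ± 0.05, GSPT1 (eRF3) by 0.69, HBS1L, a rescue GTPase, by 0.55 and ETF1 (eRF1) by 0.41. Of 5 measured elongation genes 2 fell and 2 rose (median -0.04). DPH2, which makes the diphthamide residue of eEF2, fell by 0.47, EEF1A1 fell by 0.04, EEF2 rose by 0.11 and EEF1D rose by 0.10. Over all genes 27.1% fell and 41.6% rose, the background for these and the following lists. With arrays centred on their median 1 elongation gene rose, and with the 8 set differences as replicates 1 fell.

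Of 17 measured poly(A) binding proteins and initiation helpers 8 fell (47.1%) and 4 rose (23.5%), with a median of -0.12. BZW1 and BZW2, which mimic eIF5 and compete with it, fell by 1.15 and 0.77, whereas EIF5 itself rose. CDC123, which assembles the eIF2 complex, fell by 0.74, and ABCF1, an ATPase that binds eIF2, fell by 0.46. LARP1, which binds the cap of ribosomal protein mRNAs and was chosen after its value was seen, rose by 0.68 ± 0.04 and passed in all 8 sets. Among 12 measured genes of the eIF2 phosphatase and the amino acid stress response 7 fell (58.3%) and 3 rose (25.0%), and the median change was -0.28; 1 rose with arrays centred on their median. TRIB3, ATF3 and ASNS, targets of ATF4, fell, with changes of -1.73, -1.72 and -1.71, and CHAC1, another target, fell by 1.08. PPP1R15A, the phosphatase subunit that directs removal of phosphate from eIF2, rose by 0.56 ± 0.03 and passed in all 8 sets, and ATF4 itself fell by 0.27; both were chosen after their values were seen.

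Of 12 measured genes of mTOR and MNK signalling to initiation 7 rose (58.3%) and 3 fell (25.0%, near the 27.1% of all genes), with a median of 0.06. With arrays centred on their median, 4 rose (27.9% of all probe sets then rose, against 39.3% before). MYC, a transcription factor that binds E-boxes, fell by 1.36 ± 0.04, and RHEB, the GTPase that activates mTOR, fell by 0.45. MKNK1, a kinase of eIF4E, rose by 0.42, and TSC1, part of the complex that restrains RHEB, rose by 0.41.

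**Figure D5:**
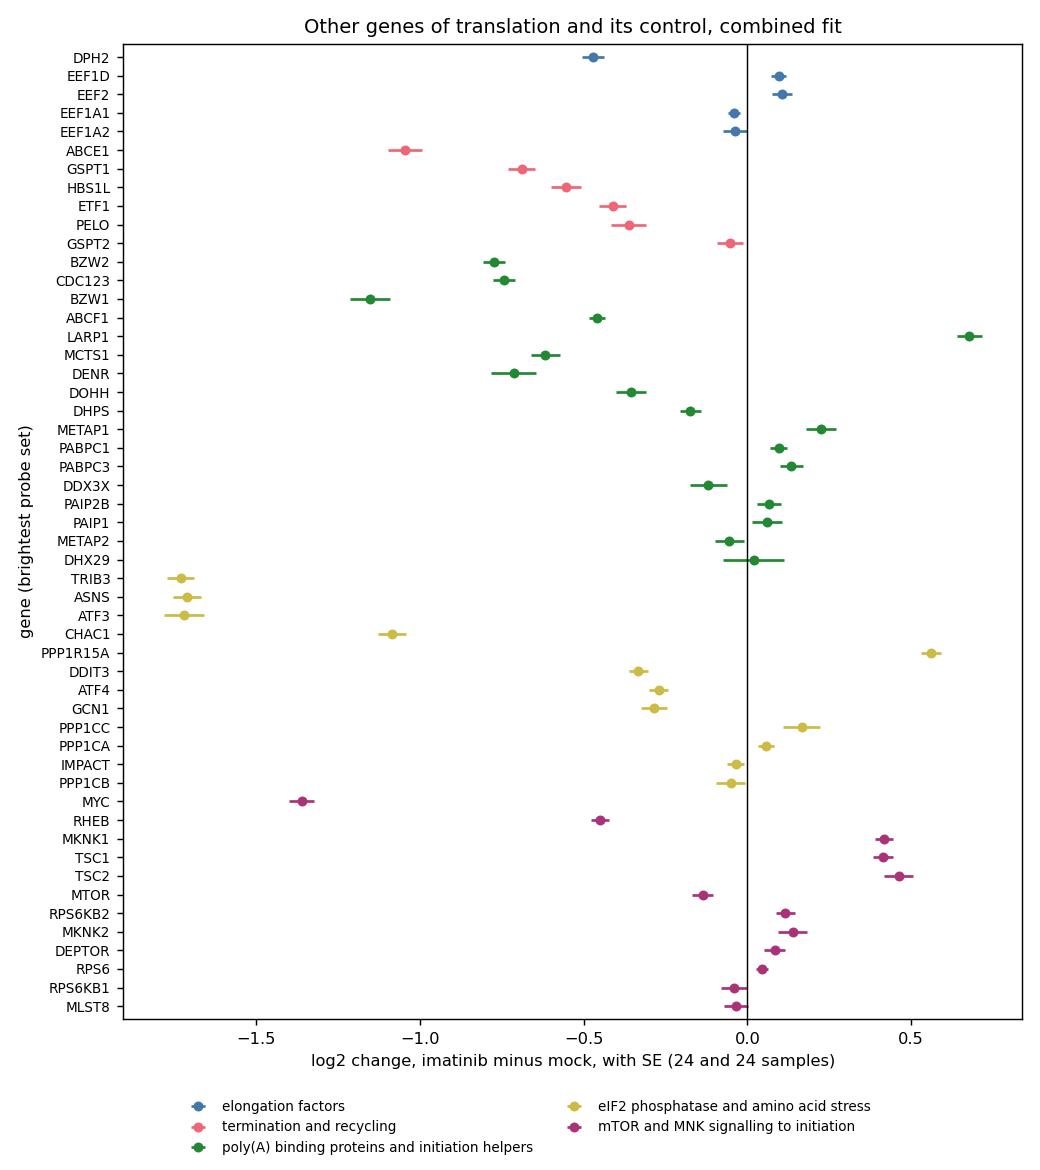
Change in log2 level (imatinib minus mock) with SE over 24 samples per treatment for the measured genes of the 5 lists of neighbouring steps. Termination and recycling genes lie below 0, and TRIB3, ATF3 and ASNS are lowest (-1.73 to -1.71).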

How the data were processed

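The authors deposited 1 log2 value per probe set and sample of the Affymetrix arrays; the log base was inferred from the range of the values. How background, probe summary and normalization were handled is not given in the sources used here. The deposited values entered the tests unchanged, without the 68 control probe sets. Gene names come from the platform annotation, brought up to date with RefSeq GRCh38.p14: 19065 probe sets had 1 symbol, 1043 several and 2107 none. A gene was read from its brightest probe set with 1 symbol.

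Two-sided tests used lmFit and eBayes of limma 3.58.1 (R 4.3.3) with Benjamini-Hochberg adjustment and a threshold of 0.05: over all samples with the set as a factor, in each set alone, and by set-by-treatment terms. Alternatives were centring, quantile normalization, an intensity trend, a replicate block, the 8 set differences as replicates, brighter probe sets only, the median over a gene's probe sets, and leaving out each sample or set. In simulated data of the combined comparison (22215 probe sets), 49 of 50 changes of 0.25 log2 and 50 of 50 at 0.5 were recovered, with 14 false calls of 213. For set F alone (22215 probe sets), 0 of 50 were recovered at 0.25, 31 at 0.5 and 48 at 1. The simulation had independent normal noise, equal changes in every set and 50 changed probe sets per size. In the data 65.2% of probe sets passed, so these figures do not measure recovery or false calls there.

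Full values were given for EIF genes past the threshold with a change of at least 0.5, one sign across all sets and a level not under the median probe set (14 genes, EIF2AK1 included). EIF5 and EIF4EBP2 lay just under 0.5 and were added after their values were seen. From each pathway list the text names up to 4 genes of that level, by smallest p. Members and lists were chosen with earlier results of these data known. The number of samples limits the precision of array values. Figures were drawn with matplotlib 3.10.9.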

Additional observations from a re-analysis of the deposited data

Results flagged for a closer look

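The change differed between sets in 4 EIF probe sets and 1 EIF2AK2 probe set by the limma F test of the set-by-treatment terms, adjusted over all probe sets. For the dimmer EIF4G1 probe set (adjusted p = 0.0187) the fall was largest in set C (-1.79) and lay between -1.12 and -0.69 in the other sets, while the brighter EIF4G1 probe set did not pass (adjusted p = 0.129). EIF4A3 (adjusted p = 0.0202 in the same limma test) ran from -0.99 in set D to -0.61 in set F. A dim EIF5B probe set (limma, adjusted p = 0.0257) ran from -0.74 in set G to -0.00 in set F, and the brightest EIF2S1 probe set (limma, adjusted p = 0.0321) from -1.10 in set C to -0.63 in set F. The dimmer EIF2AK2 probe set (limma, adjusted p = 0.042) ran from 0.05 in set C to 0.97 in set F. The direction was the same in all 8 sets for each of these 5 probe sets.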

How the results depend on the processing

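Nothing in the sources ties samples by number. Deviations of mock and imatinib samples with the same number had a median correlation of 0.02 over 24 pairs, and 7 pairs were over 0.1. For samples with different numbers the median was -0.03 over 48 pairs, and 12 pairs were over 0.1. With the replicate number as a block, 54 EIF probe sets fell and 16 rose. The counts of 55 and 17 became 60 and 14 with arrays centred on their median, 51 and 19 with quantile normalization within sets, and 49 and 15 with the 8 set differences as replicates. Over all probe sets, centring changed the split from 39.3% higher and 25.8% lower to 27.9% and 29.9%.

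Counts of EIF probe sets that rose in a set alone were the least stable. With centring they were 4 in set D and 2 in set E; with quantile normalization 8 in set E and 13 in set G. Set G gave 13 with an intensity trend and 4 with the replicate block. Leaving out 1 sample gave 5 to 11 in set A, 6 to 9 in C, 4 to 9 in D, 2 to 6 in E, 5 to 11 in F, 4 to 12 in G and 6 to 12 in H; falls in set F ran from 8 to 14. The set-by-treatment count ran from 2 to 12 (12 without imatinib replicate 1 of set E). Centring left 1 elongation gene, 1 eIF2 phosphatase and stress gene and 4 mTOR and MNK genes that rose, and the 8 set differences left 1 elongation gene that fell. With quantile normalization RPS6 changed by -0.0097 in place of 0.04, and EIF2B4 by 0.0685 (limma, adjusted p = 0.0331) in place of -0.03. Besides EIF1, EIF1AY, EIF1B, EIF2B4, EIF2S3, EIF3E and EIF3K, each EIF and EIF2AK gene kept its direction and its side of the threshold in every alternative that tested it. This does not cover the size of a change. With the median over a gene's probe sets in place of the brightest, the value moved for 8 of the 43 EIF and EIF2AK genes. The causes were not tested.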
